A study of Equus caballus with 6 samples.

Results

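Short piRNAs that carry both sequence marks of the piRNA pathway were followed in the testis of the Mongolian horse. They were defined as sequences of 25 to 28 nt with uridine at position 1 (U1) and adenine at position 10 (A10), and were chosen by length and sequence only. Of the 4936717 distinct sequences in the deposited table, 688339 (13.9%) met this rule, and they held 9.19% of all reads. Small RNA libraries had been made from 3 immature and 3 mature testes of this breed, with no treatment or genotype named in the labels, and the age of the animals is not given. The labels number the testes of each group without saying whether different animals were used, so p-values measure only the spread between these libraries. Each library was given as 1 column of read counts per sequence. Levels below are read counts scaled to the table total of the library (CPM), which covers called piRNAs and not the whole sequenced library.

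piRNAs are small RNAs of germ cells that guide PIWI proteins to transposon and other transcripts. Primary piRNAs are cut from long precursors and usually start with uridine. In the ping-pong cycle a guided cut falls opposite positions 10 and 11 of the guide, so that the new piRNA overlaps its guide by 10 nt at the 5′ end and carries adenine at position 10 opposite the uridine of the guide. In a sequence with U1 and A10, its first 10 nt read as the reverse complement again begin with uridine and have adenine at position 10. A partner of such a sequence over a 10 nt overlap is therefore of the same kind in these positions. The final length is set by trimming of the 3′ end and depends on the PIWI protein that holds the RNA, and mammalian PIWI proteins that act at different stages of germ cell development hold piRNAs of different lengths.

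The sequences on which the values below turn are shown as the table gives them, 5′ to 3′ with T for uridine, with positions 1 and 10 in capitals. The first set holds the most abundant members and those that were higher in immature testis.
uniq_222460: TtgctgaggAagactggccctgagcta
uniq_2330440: TgaagtagaActtctgctctgccgtgt
uniq_2332201: TgaagtagaActtctgctctgccgtg
uniq_2336871: TgaagtaggActtctgctctgggtgtg
uniq_11876: TtctgtctcAtgtgaatttaattcgtt
uniq_4546904: TacttggatAactgtggtaattctagag
uniq_1211528: TgagctgatAttatgtgctgacagact

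The second set holds an abundant member and the members that were higher in mature testis.
uniq_4410434: TtaccatcaAcatggaaacttggctct
uniq_3119630: TcatgtaggAtgctgcttgactctcttc
uniq_3842421: TatttattgAgtgtctactgtgtgcttc
uniq_54208: TccgttctgAttggttggtgcctata
uniq_2097665: TgacttaaaAtgagctgccctgattta
uniq_4596709: TctgattgcAgagcaatttacactgatg
uniq_4029327: TgcttctgcAgctgtatctacctcttga

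The third set holds partners in complementary pairs, shown because their first 10 nt are reverse complements of each other: the first sequence pairs with the second, the third with the fourth and the fifth with the sixth. The last sequence pairs with uniq_2330440 of the first set.
uniq_2337053: TaagaaacaActcgctctgcacagtg
uniq_2333746: TtgtttcttAgactgcaaaagagctgg
uniq_1872299: TtatttggaAacagagtctttgcagat
uniq_2624047: TtccaaataAggtcacgttctgagatc
uniq_2095213: TaaactgtcAtggcttgtaaatggtg
uniq_3824331: TgacagtttAtgttctctgaaggacgtg
uniq_2332557: TtctacttcAgcgagatcaggcctggga

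Short U1A10 piRNAs were more prominent in immature testis than in mature testis. Their share of reads was 15.4%, 15.2% and 16.3% in the immature libraries and 6.37%, 6.65% and 6.76% in the mature libraries. The groups did not overlap, and the means were 15.6% ± 0.582 and 6.59% ± 0.197 (SD, n = 3, exact two-sided permutation p = 0.1, the smallest p that 3 against 3 libraries can give). That is a 2.37-fold higher share in immature testis. The other short classes differed in the same direction, with 37.7% ± 1.64 and 18.2% ± 0.767 for short U1 reads without A10 (2.07-fold) and 4.24% ± 0.0971 and 1.80% ± 0.110 for short A10 reads without U1 (2.36-fold). Over distinct sequences rather than reads, the shares were 17.8% ± 0.557 and 9.63% ± 0.141. Among U1 reads alone, which leaves out fragments that start with another base, members amounted to 20.7% ± 0.30 in the immature and 7.34% ± 0.171 in the mature libraries (p = 0.1, exact permutation test). Over all U1A10 reads of 25 to 32 nt, 70.7% ± 1.20 were short in immature and 25.4% ± 0.621 in mature testis.

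The difference was not even over the 4 lengths. U1A10 reads of 25 nt made up 1.22% ± 0.128 of the immature pool and 0.396% ± 0.0394 of the mature pool, a 3.09-fold difference. The fold was 2.82 at 26 nt, where the shares were 5.01% ± 0.31 and 1.78% ± 0.101. It was 2.60 at 27 nt, the most frequent member length in both groups, with 6.49% ± 0.231 and 2.50% ± 0.107. At 28 nt, just inside the limit of the rule, it was 1.51, with 2.90% ± 0.219 and 1.92% ± 0.0486. Just outside the limit, at 29 nt, mature testis had the larger share, at 6.80% ± 0.483 against 3.46% ± 0.126 in immature testis. At each of these lengths the groups did not overlap (p = 0.1, exact permutation test). Within the members, reads of 28 nt took 18.6% ± 1.21 in immature and 29.2% ± 1.51 in mature testis, so the mature members were longer among themselves too.

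Most members were rare. Of the 688339 members, 541497 (78.7%) had 1 read in all libraries together, against 77.0% of all sequences of the table, and 1936 were found in all 6 libraries. Members seen only in immature libraries numbered 436050, those seen only in mature libraries 212726, and 39563 were seen in both groups. The 39563 members of both groups held 27.2% of the immature and 56.6% of the mature member reads. A member with 1 read can be seen in 1 group only. This split by group was not counted over all sequences of the table, so it does not set the members apart. After thinning every library to 1382083 reads, 144540, 148383 and 161480 members were left in the immature libraries and 46018, 47347 and 45336 in the mature libraries (p = 0.1, exact permutation test). The mean number was 3.28-fold higher in immature testis. Without thinning, the members' share of distinct sequences was 1.85-fold higher. Distinct sequences of the whole table were not counted after thinning, so the 3.28-fold difference does not set the members apart. The 100 most abundant members of a library held 5.68% ± 0.871 of its member reads in immature and 10.6% ± 0.388 in mature testis.

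Short U1 reads carried adenine at position 10 more often in immature testis. A10 was found in 28.6%, 29.8% and 29.5% of the U1 reads of 25 to 28 nt in the immature libraries and in 26.7%, 26.9% and 26.2% in the mature libraries. The means differed by 2.69 percentage points (29.3% ± 0.602 and 26.6% ± 0.376, SD, n = 3, exact permutation p = 0.1). Because uridine and adenine are not equally frequent along piRNAs, the neighbouring positions serve as a background. In the same reads adenine stood at position 9 in 22.2% ± 0.746 and at position 11 in 22.9% ± 0.688 in immature testis, and in 22.3% ± 0.161 and 22.1% ± 0.118 in mature testis. A10 exceeded the mean of both neighbours by 6.73 ± 0.381 percentage points in immature and by 4.36 ± 0.476 in mature testis (p = 0.1, exact permutation test). Over distinct sequences rather than reads, the excess was 6.34 ± 0.175 and 4.16 ± 0.294. Other positions held more adenine than position 10, which ranked 3, 3 and 4 by its share of adenine among positions 2 to 25 in the immature libraries and 7, 6 and 9 in the mature libraries.

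For long U1 reads, of 29 to 32 nt, the groups overlapped or the order depended on the counting. A10 stood in 29.4% ± 1.40 of them in immature and 29.8% ± 0.429 in mature testis (p = 0.7, exact permutation test), and its excess over the neighbouring positions was 7.26 ± 0.274 and 6.73 ± 0.411 percentage points (p = 0.2, exact permutation test). When every distinct sequence counted as 1, the excess of long U1 sequences was 8.26 ± 0.296 and 5.43 ± 0.199 percentage points (p = 0.1, exact permutation test), and so it too was higher in every immature library. By reads, the long class exceeded the short class in A10 by 2.82, 3.38 and 3.54 percentage points in the mature libraries and by -0.69, -0.29 and 1.23 in the immature libraries, so that the groups did not overlap (p = 0.1, exact permutation test). When every distinct sequence counted as 1, the order of the groups was turned. The gap was then 3.49, 2.47 and 2.81 percentage points in immature and 1.61, 1.55 and 1.74 in mature testis, with long sequences above short ones in 6 of 6 libraries (exact sign-flip test over 6 libraries, p = 0.03125, the smallest p it can give).

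The bases next to A10 differed between members and short U1 reads without A10 in 6 of 6 libraries. Guanine stood at position 9 in 33.04% ± 0.804 of immature and 36.2% ± 0.491 of mature member reads, against 22.8% ± 0.18 and 22.4% ± 0.337 of short U1 reads without A10. Uridine stood there in 19.1% ± 0.367 and 16.3% ± 0.299 of member reads, against 36.9% ± 0.467 and 36.6% ± 0.162. Each adenine at positions 13 to 20 of the members was preceded by guanine in 36.4% ± 0.917 and 36.8% ± 0.183 and by uridine in 13.5% ± 0.135 and 14.6% ± 0.242, so the same order of bases preceded other adenines in these reads. At position 11, uridine made up 25.8% ± 0.18 and 23.9% ± 0.403 of member reads, against 35.5% ± 0.342 and 34.6% ± 0.116 of short U1 reads without A10. The bases that follow other adenines in these reads were not counted, so this difference has no such background. Position 2 held guanine in 42.0% ± 1.58 of immature and 42.1% ± 0.568 of mature member reads (p = 0.8, exact permutation test). The GC content of the members was 45.1% ± 0.396 and 44.6% ± 0.106 (p = 0.2, exact permutation test).

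The same 5′ ends were found at shorter lengths in immature than in mature testis. A 5′ end was taken as the first 25 nt of a U1A10 sequence, and 398 ends had at least 10 reads of any length in every library. On average 54.3%, 54.0% and 54.0% of the reads of such an end were of 25 to 28 nt in the immature libraries, and 32.9%, 34.3% and 34.3% in the mature libraries (means 54.1% ± 0.158 and 33.8% ± 0.766, SD, n = 3, exact permutation p = 0.1). The mean read length of these ends was 28.2 nt ± 0.0123 and 28.9 nt ± 0.0189. The short share was higher in every immature than in every mature library for 242 of the 398 ends (60.8%), the opposite held for 5, and for 151 the groups overlapped. Among 861 U1 ends without A10 chosen in the same way, 434 (50.4%) were shorter in every immature library and 19 in every mature library, and the mean short share was 54.2% ± 0.142 in immature and 37.7% ± 0.781 in mature testis. The mean for U1A10 ends minus that for U1 ends without A10 was -3.90, -3.62 and -4.10 percentage points in the mature libraries and -0.06, -0.13 and -0.06 in the immature libraries (p = 0.1 for the difference between groups, exact permutation test).

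These 398 ends were well covered ends and not typical of all members. They held 11.4% ± 1.05 of U1A10 reads in immature and 26.1% ± 0.627 in mature testis. Over all members, the 5′ end was also found at 29 to 32 nt in the same library for 35.2% ± 2.29 of member reads in immature and 73.0% ± 0.919 in mature testis. After thinning to equal table totals the values were 33.5% ± 0.471 and 66.8% ± 1.24 (p = 0.1, exact permutation test). Long U1A10 reads made up 6.49% ± 0.434 of the immature and 19.4% ± 0.365 of the mature pool. The share of reads with a long form was not taken for other classes, so it does not set the members apart. Of the 484018 distinct 5′ ends of members, 91962 (19.0%) were found at 29 to 32 nt in any library, 356481 at 1 length only and 1395 at all 8 lengths.

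Single ends ranged from a clear shift to none. For the end of uniq_11876, 90.2%, 83.9% and 81.2% of reads were short in the immature libraries and 46.0%, 49.6% and 42.1% in the mature libraries. The end shared by uniq_2330440 and uniq_2332201 was short in 79.1%, 77.9% and 80.5% of immature and 48.2%, 57.2% and 48.5% of mature reads. In both cases the groups did not overlap. The end of uniq_222460 stayed short, with 97.1% to 98.4% in the immature and 91.7% to 95.6% in the mature libraries. The end of uniq_4410434 was almost never longer, with 100% short reads in 5 libraries and 99.95% in mature replicate 2. The end of uniq_3119630 went the other way, with 53.8%, 56.4% and 63.2% short reads in immature and 76.6%, 67.7% and 75.3% in mature testis, although only 145 reads of that end were found in the immature libraries.

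The most abundant ends that were found at all 8 lengths were long in both groups. The first 25 nt of these ends are given here because they show the short members as a minor part of a longer ladder.
End 1: TgacatccaAtatgctgtgaacatg
End 2: TccacagctAtgaacccctgctgct

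End 1 stood at 13.02, 131 and 71.8 CPM over all lengths in the immature and at 1626, 1261 and 1409 CPM in the mature libraries. Its reads were most often of 30 nt in both groups (26.8 ± 20.4 CPM in immature and 643 ± 48.3 in the mature group, SD, n = 3), followed by 29 nt (23.4 ± 18.6 and 507 ± 123 CPM). Among its short forms, 28 nt led with 16.8 ± 15.3 and 217 ± 71.6 CPM, and 26 nt had no read in the immature libraries and 5.46 ± 1.30 CPM in mature testis. The short share of end 1 was 24.2% ± 6.67 in immature and 18.4% ± 3.98 in mature testis, and the groups overlapped. End 2 stood at 34.0, 120 and 226 CPM in the immature and at 1469, 1750 and 814 CPM in the mature libraries. Its short share was 6.88% ± 4.18 and 8.30% ± 1.15, again with overlapping groups. The lower short share of mature testis seen on average over the 398 ends was thus not resolved in either of these abundant ends.

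Most member reads had a complementary 5′ end in their library. The first 10 nt of 86.1%, 91.2% and 87.5% of member reads in the immature libraries and 86.0%, 86.0% and 85.5% in the mature libraries were reverse complementary to the start of some other sequence. Members used 49655 of the 65536 possible first 10 nt with U1 and A10, so such matches also arise without any relation between sequences. The background was measured with a query that kept both end bases and held the inner 8 bases in reverse order, and it was matched by 65.9% ± 4.72 of immature and 63.1% ± 0.62 of mature member reads. The excess over this background was 24.7, 20.3 and 22.1 percentage points in the immature and 22.4, 23.5 and 22.2 in the mature libraries. The groups overlapped, with means of 22.4 ± 2.18 and 22.7 ± 0.697 (SD, n = 3, exact permutation p = 0.8), and the sign of their difference changed with the processing. The size of the excess changed with the background too.

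The other classes had other matched shares and other backgrounds, so the excess does not rank them against the members. For long U1A10 reads 89.3% ± 2.52 matched in the immature and 86.7% ± 0.708 in the mature libraries, above the members in 6 of 6 libraries, and the background was 68.8% ± 4.43 and 67.7% ± 1.67, also above that of the members in 6 of 6 libraries. Their excess was 20.6 ± 2.01 and 19.0 ± 1.92 percentage points. For short U1 reads without A10, matches and background were both far lower, at 40.4% ± 4.75 against 22.4% ± 3.75 in the immature and 36.4% ± 0.483 against 18.8% ± 0.777 in the mature libraries. Short A10 reads without U1 matched in 90.7% ± 2.27 of immature and 94.2% ± 0.582 of mature reads. Their background was 67.6% ± 2.49 and 45.4% ± 1.40, so that the difference between their excesses of 23.1 ± 0.654 and 48.8 ± 1.70 percentage points came mainly from the background. Partners of the members were found at both lengths. The excess counted over short partners alone was 24.1 ± 2.33 and 23.7 ± 1.17 percentage points, and over long partners alone 24.0 ± 1.12 and 24.4 ± 1.16.

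Single members were tested in edgeR across the whole table, with table totals as scale and a Benjamini-Hochberg adjusted p under 0.05 as a call. Of 31788 sequences with enough reads, 2965 were members, a small part of the 688339. With table totals, 1323 of the 2965 (44.6%) were called higher in immature testis, against 20.3% of all tested sequences, and 1565 (52.8%) higher in mature testis, against 77.7%. With TMM factors, which centre the bulk of the tested sequences, 1388 (46.8%) were called higher in immature testis, against 21.9% of all, and 80 (2.70%) higher in mature testis, against 8.41%. The 1323 and the 80 were called on either scale with the same sign, and 0 were called in opposite directions. The median log2 fold change of mature against immature testis was 1.75 over the tested members and 3.15 over all tested sequences with table totals. TMM factors moved the median of all sequences by -2.52 to 0.62 and that of the tested members to -0.79. The median moved with which members passed the filter on low counts, and it was -3.19, -3.45 and -3.53 over the 3116, 3102 and 3011 members tested without mature replicate 1, 2 and 3. A member read in 1 group only could pass through that group, so the counts describe the tested members and not all members.

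Calls differed by length and from the nearest classes. Among tested members of 26 nt 435 of 869 were called higher in immature and 411 in mature testis with table totals, among those of 27 nt 590 and 563 of 1183, and among those of 28 nt 216 and 511 of 746. At 25 nt the numbers were 82 and 80 of 167. With TMM factors the calls higher in immature testis were 86, 456, 613 and 233 from 25 to 28 nt, and those higher in mature testis only 5, 15, 26 and 34. Over all tested sequences the shares were 20.3% and 77.7% with table totals and 21.9% and 8.41% with TMM factors. Of 7262 tested short U1 sequences without A10, 38.3% were called higher in immature and 58.8% in mature testis with table totals. Of 5362 tested long U1A10 sequences 6.53% and 91.6% were so called, and of 462 tested short A10 sequences without U1 55.8% and 43.3%. With TMM factors the shares higher in immature testis were 40.6%, 8.08% and 56.7%, and those higher in mature testis 2.74%, 12.4% and 4.33%. The members thus lay between both other short classes in their share of calls higher in immature testis. The members called higher in immature testis with table totals held 13.4% ± 1.69 of immature and 1.39% ± 0.269 of mature member reads. Those called higher in mature testis held 31.3% ± 1.16 of mature and 1.57% ± 0.983 of immature member reads. These sets were chosen by their levels in the same libraries, so the group in which they hold more reads follows from the choice. No read was found in any library of the other group for 256 of the 1323 (19.4%) and for 57 of the 1565 (3.64%). Such members passed the filter on low counts through 1 group only. These numbers were not taken over all tested sequences, so they do not set the members apart.

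The most abundant member, uniq_222460, was a sequence of immature testis. It stood at 1401, 638 and 766 CPM in the immature and at 19.1, 66.5 and 31.9 CPM in the mature libraries. The groups did not overlap, and the mean was 23.9-fold higher in immature testis (36.7-fold without mature replicate 2). Its log2 fold change was -4.58 ± 0.79 (SE, edgeR adjusted p = 4.16e-08) with table totals and -7.22 ± 0.81 (adjusted p = 3.64e-18) with TMM factors. It had many close relatives, since 689 members lay within 2 mismatches of its first 20 nt. Summed, these reached 2273 ± 571 CPM in the immature and 114 ± 63.8 in the mature libraries (SD, n = 3).

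A family of related members was larger than these relatives in immature testis. uniq_2330440 stood at 462, 320 and 336 CPM in the immature and at 20.8, 23.8 and 29 CPM in the mature libraries. uniq_2332201, the same sequence without its last base, stood at 490, 336 and 310 CPM in the immature and at 6.04, 13.4 and 5.71 CPM in the mature libraries. The pair shows the length difference within 1 end, since the form of 27 nt was 15.2-fold and the form of 26 nt 45.2-fold higher in immature testis. uniq_2336871 shares most of this start and has another 3′ part, and it stood at 287, 196 and 201 CPM in the immature and at 0.483, 2.73 and 0.659 CPM in the mature libraries. Its log2 fold change was -7.43 ± 0.89 (edgeR adjusted p = 5.92e-15) with table totals. Its ratio of 177 rested on 2, 11 and 3 mature reads and was 399 without mature replicate 2. Within 2 mismatches of the first 20 nt of uniq_2330440 the table held 1828 members in 287 different 20 nt starts, with a summed level of 3500 ± 358 CPM in the immature and 123 ± 39.5 in the mature libraries.

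The other members named for immature testis had fewer near relatives, with 495, 51 and 99 members within 2 mismatches of the first 20 nt of uniq_11876, uniq_4546904 and uniq_1211528. uniq_11876 stood at 310, 178 and 96.4 CPM in the immature and at 20.8, 33.7 and 15.4 CPM in the mature libraries. uniq_1211528 stood at 244, 145 and 107 CPM and at 3.38, 4.46 and 1.10 CPM, a 55.4-fold difference. uniq_4546904 stood at 103, 233 and 181 CPM in the immature and at 20.3, 11.4 and 15.8 CPM in the mature libraries. By general knowledge, and not by a match made here, the letters of uniq_4546904 are found in small-subunit ribosomal RNA, and whether its reads are piRNAs was not tested. For these 3 members the groups did not overlap, and all 3 were called in all 20 alternative fits, with an adjusted p in edgeR or DESeq2 of at most 0.00221. These fits reuse the counts by which the members were named.

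Of the 6 members named as higher in mature testis on both scales 2 were called in all 20 alternative fits, against 6 of the 6 named as higher in immature testis. Both sets were named for their calls on both scales, and the fits reuse the same counts, so these numbers are no independent support. uniq_4410434 was the second most abundant member, at 20.3, 184 and 75.9 CPM in the immature and 608, 467 and 652 CPM in the mature libraries. Its log2 fold change was 2.62 ± 0.72 (edgeR adjusted p = 0.000289) with table totals and 0.09 ± 0.59 (adjusted p = 0.925) with TMM factors, and the sign turned with TMM factors without immature replicate 1. Its 6.17-fold difference was 11.98-fold without immature replicate 2. uniq_3119630 stood at 4.34, 18.3 and 12.3 CPM in the immature and at 227, 172 and 236 CPM in the mature libraries. It was named here for its calls on both scales, with log2 fold changes of 4.16 ± 0.75 (edgeR adjusted p = 1.4e-07) with table totals and 1.60 ± 0.63 (adjusted p = 0.0369) with TMM factors. It was called in 16 of the 20 alternative fits, and its adjusted p in edgeR or DESeq2 reached 0.133.

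The further members named for mature testis had few or no reads in the immature libraries. uniq_3842421 stood at 0, 2.56 and 1.37 CPM in the immature and at 75.4, 68.0 and 59.5 CPM in the mature libraries, a 51.7-fold difference that was 98.9-fold without immature replicate 2. uniq_4596709 had no read in any immature library and stood at 30.4, 44.1 and 31.6 CPM in the mature libraries. Against 3 reads in each immature library, taken here as an upper limit for a count of 0, it was 19.3-fold higher. uniq_3842421 and uniq_4596709 were called in all 20 alternative fits, which reuse the counts by which they were named. uniq_4596709 passed the filter on low counts through the mature libraries alone, so its calls add nothing to these counts. uniq_54208 stood at 0, 4.26 and 0.684 CPM in the immature and at 38.7, 43.2 and 39.1 CPM in the mature libraries, and uniq_2097665 at 0, 3.83 and 0.684 CPM and at 46.1, 39.7 and 24.2 CPM. Without immature replicate 2 their ratios rose from 24.5 to 118 and from 24.3 to 107, and without immature replicate 1 the ratios were 16.3 and 16.2. uniq_4029327 stood at 0.724, 2.13 and 0.684 CPM and at 47.1, 16.9 and 37.4 CPM, a ratio of 28.6 that was 48.0 without immature replicate 2.

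In each of the complementary pairs both members were called in the same direction with table totals. On this scale 44.6% of all tested members were called higher in immature and 52.8% higher in mature testis. Over all tested sequences the shares were 20.3% and 77.7%. These are shares of single sequences. How often 2 tested members share a direction was not counted, so whether the pairs stand apart in this was not tested. The first pair belonged to immature testis, where uniq_2337053 stood at 202, 204 and 50.6 CPM against 1.21, 2.48 and 1.10 CPM in the mature libraries. Its partner uniq_2333746 stood at 25.3, 32.8 and 34.9 CPM and at 0.483, 0.248 and 0 CPM. The pair of uniq_2330440 and uniq_2332557 belonged to immature testis too, and uniq_2332557 stood at 20.3, 20.9 and 15.0 CPM and at 0.483, 0.744 and 0.22 CPM. All sequences that start with the complement of uniq_2332557 together stood at 3528 CPM in the immature and 212 in the mature group, and those that start with the complement of uniq_2330440 at 90.3 and 3.11 CPM. For the first pair, the sums were 99.1 and 1.58 CPM over the complements of uniq_2337053 and 853 and 31.9 CPM over those of uniq_2333746. Both sides of these pairs were thus higher on average in immature testis, and they differed widely in level.

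In the other pairs the named members were higher in mature testis with table totals. uniq_1872299 stood at 2.89, 13.2 and 5.47 CPM in the immature and at 104, 99.2 and 42.6 CPM in the mature libraries, and its partner uniq_2624047 at 0, 2.56 and 0.684 CPM and at 18.6, 28.8 and 14.1 CPM. Without immature replicate 2 their ratios of 11.4 and 19.0 were 19.6 and 59.9, and that of uniq_2624047 was 12.6 without immature replicate 1. uniq_2095213 stood at 0.724, 2.98 and 4.79 CPM and at 14.5, 18.1 and 21.3 CPM, and its partner uniq_3824331 at 6.51, 8.95 and 7.52 CPM and at 60.4, 63.7 and 73.8 CPM. The sums of all sequences that start with the complement did not all follow the named members. They were 63.3 CPM in the immature and 102 in the mature group for uniq_1872299, 104 and 974 CPM for uniq_2624047, and 112 and 1066 CPM for uniq_2095213. For uniq_3824331 the order was the other way, with 76.7 and 53.3 CPM. The ratio of uniq_2095213 was 6.35, and 9.70 without immature replicate 3. In each of the 4 pairs the groups did not overlap for either partner. The same held for 1310 of the 1323 members called higher in immature and 1536 of the 1565 called higher in mature testis. All these members were called by their levels in the same libraries, so a lack of overlap largely follows from the calls. It was not counted over all tested sequences and does not set the pairs apart. The 4 members of the mature pairs were called with table totals (edgeR adjusted p up to 0.000131) and not with TMM factors (adjusted p of 0.145 to 0.948). Pairs were chosen for complementary starts and high levels, and a match of 10 nt does not show that 2 sequences come from opposite strands of 1 place.

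The precision of the 5′ ends was read from the table itself, as no genome was used. For each tested member, all reads that hold its positions 6 to 21 were collected, and the share that starts at the same base was taken. The median share was 74.7% (quartiles 52.7% and 90.7%) for the 1323 members called higher in immature testis and 76.6% (50.7% and 94.2%) for the 1565 called higher in mature testis with table totals, and 76.1% over all 2965 tested members. Among the named members, uniq_4410434 had 1 start only, over 9283 reads. The share was 97.8% for uniq_11876, 97.8% for uniq_1211528, 99.7% for uniq_54208 and 97.2% for uniq_3119630. The lowest share among the named members was 16.7%, for uniq_2095213, with 612 of 3662 reads. It was 44.9% for uniq_222460, with 13 starts, 48.5% for uniq_4546904, with 11 starts, 54.3% for uniq_2336871, 54.6% for uniq_3824331 and 55.0% for uniq_1872299. A stretch of 16 nt can occur in several places of a genome, so a low share does not separate loosely cut RNA from repeats.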

How the data were processed

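Small RNA libraries of 3 immature and 3 mature testes were compared. The deposited table holds raw read counts per distinct sequence, in whole numbers without scaling, per the file headers. Per the labels' protocols, adapters were ligated to both ends of small RNAs from total RNA and products of one size range were cut from a gel. Per the submitters' processing notes Bowtie was used. Its version, the genome build and the way piRNAs were called were not given in the sources used here. Identifiers run up to 13656183, so the table is part of a longer list.

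All 6 count columns were used, with 1382083 to 2347351 reads in immature and 4032042 to 4550970 in mature libraries. The 95% Wilson intervals of the member shares had half-widths of up to 0.0601 percentage points. As an upper limit for a count of 0, 3 reads were taken, or 0.659 to 2.17 CPM. Both cover counting error only, since PCR copies cannot be told from molecules. Libraries of a group differed beyond counting noise (chi-square of 3.14 to 4.12 per member).

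Shares were compared by exact permutation tests over libraries (scipy 1.17.1) and single sequences by the quasi-likelihood test of edgeR 4.0.16 in R 4.3.3 after filterByExpr with defaults, with DESeq2 1.42.0 as an alternative. Standard errors are the log2 fold change divided by the square root of F. Alternatives were other scale factors, filters on low counts, thinning to equal totals, another background for the 10 nt matches, a replicate block and leaving out each library. Scripts were tested on simulated data. Named members were the 6 most abundant, the 6 highest called in each direction on both scales (at most 1 per first 20 nt), the 4 strongest complementary pairs and 2 ends found at all lengths. Members and rules were chosen with earlier results of these data known.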

Additional observations from a re-analysis of the deposited data

How the results depend on the processing

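The share of reads in short U1A10 sequences, A10 among short U1 reads and the short share within shared 5′ ends kept their direction under all 12 alternatives each. Leaving out 1 library gave differences of -9.24 to -8.70, -3.03 to -2.45 and -21.2 to -14.6 percentage points. The difference in 10 nt excess (0.32 percentage points, mature minus immature) turned to -6.09 without sequences of 1 read, to -0.72 with windows shifted by 1 to 5 nt as background, and ran from -0.70 to 1.47 over single libraries left out, turning below 0 without immature replicate 2 (-0.70) and without mature replicate 2 (-0.08). It was 5.10 with partners of at least 10 reads, an alternative added after seeing the data. The cause was not tested, and partner reads scale with depth. The size of the excess also depended on the background and the partners. With shifted windows it was 48.9 ± 0.631 percentage points in immature and 48.2 ± 0.926 in mature testis. With partners of at least 10 reads it was 6.03 ± 0.938 and 11.1 ± 0.576.

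Members called higher in mature testis (1565 with table totals) numbered 80 with TMM factors, 585 with upper quartile factors, 94 with DESeq2, 384 after a filter of 10 CPM in 3 libraries, 6161 with no filter beyond 6 reads, 592 after thinning and 13 with TMM factors and the replicate block. In this order they were 2.70%, 19.7%, 3.17%, 55.7%, 18.9%, 53.7% and 0.438% of the members tested. Over all tested sequences the shares were 8.41%, 43.5%, 12.7%, 81.2%, 31.2%, 79.2% and 2.18%, so the whole table moved too. Those called higher in immature testis (1323) numbered 299, 11869 and 487 under the same filters and thinning. They were 43.3%, 36.4% and 44.2% of the members tested, against 17.9%, 18.1% and 19.3% of all tested sequences. These filters and thinning change the number of members tested (690, 32636 and 1102). Without 1 library, counts ran from 1169 to 2681 and from 1616 to 1943 with table totals, the highest mature counts being 2511, 2681 and 2649 without immature replicates 1, 2 and 3. With TMM factors they ran from 34 to 237 and from 1692 to 2014 (mature: 34, 237, 56, 54, 59 and 73; immature: 2014 and 1998 without immature replicates 1 and 3), alternatives added after seeing the data. Without 1 library, with table totals, 38.8% to 58.0% of tested members were called higher in mature and 34.9% to 57.7% in immature testis. Over all tested sequences the shares were 68.0% to 78.2% and 16.2% to 29.1%. With TMM factors they were 0.687% to 5.12% and 36.6% to 59.6% of members, against 3.35% to 11.7% and 17.3% to 30.8%. The replicate block with table totals gave 1503 and 1302 calls. These were 50.7% and 43.9% of the members tested, against 76.3% and 19.8% of all tested sequences. Same-numbered libraries did not deviate together (r = 0.04, -0.09 and 0.01 over 31788 sequences), and not every library correlated best with its own number, so the numbers were not taken as pairs.

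With TMM factors and without immature replicate 1, uniq_4410434 turned to a log2 fold change of -0.12 and uniq_2095213 to -0.003.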

Other observations

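For each last base of the members, the groups overlapped. It was uridine in 35.5% ± 2.38 of immature and 33.5% ± 1.31 of mature member reads (SD, n = 3, exact permutation p = 0.2), cytosine in 27.5% ± 2.48 and 30.03% ± 1.11 (p = 0.2, exact permutation test) and guanine in 15.7% ± 0.0725 and 16.3% ± 0.767 (p = 0.2, exact permutation test). Uridine at position 2 was found in 17.6% ± 0.513 of immature and 14.2% ± 0.0646 of mature member reads, with no overlap between the groups (p = 0.1, exact permutation test). Among short U1 reads without A10 it was found in 15.7% ± 0.173 and 14.2% ± 0.0262 (p = 0.1, exact permutation test).

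Starts that are their own reverse complement, which a U1A10 sequence can have, were left out of the 10 nt matches and made up 0.225% ± 0.00294 of immature and 0.27% ± 0.0107 of mature member reads (p = 0.1, exact permutation test).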
